A study of Mus musculus with 12 samples.

Results

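The genes described here are 4 receptors that steer melanoblasts, the migrating precursors of pigment cells, and mature melanocytes: Mc1r, Met, Kit and Ednrb. Every probe set whose platform symbol is one of these names was taken, which gave 9 of the 45101 probe sets on the array: 2 for Mc1r, 2 for Met, 2 for Kit and 3 for Ednrb. No probe set that carries several symbols names any of them. They stand for 4 of the 18193 genes that the platform's annotation names singly. The study hybridised RNA from the mouse melanoma cell line B16-F10 to 12 one-colour arrays. The cells carried the empty vector pMES, pMES with chicken FoxD3, or pMES with chicken FoxD3-VP16, with 4 arrays per group. In FoxD3-VP16 the C-terminal repression domain of FoxD3, a forkhead factor of the neural crest, is exchanged for the strong activator part of the viral protein VP16. Both inserts and EGFP are driven by the chick beta-actin promoter. FACS took the EGFP-positive cells of every group at 24 h, so each value reflects a short-term state of transfected cells of 1 line. The labels do not say whether replicates came from separate cultures, so the p-values may rest on technical spread alone. In bulk samples such as these, fewer cells that make a transcript and less of it per cell cannot be told apart.

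Mc1r is the G protein-coupled receptor for melanocortins such as alpha-MSH; it raises cyclic AMP, is blocked by the agouti protein and favours dark pigment. Ednrb, also coupled to G proteins, binds endothelins, and with Edn3 it is needed for melanoblasts to spread and survive. Kit and Met are receptor tyrosine kinases. Kit binds Kit ligand (Kitl) and supports melanoblast survival and migration, and Met binds hepatocyte growth factor (Hgf) and promotes scattering and motility. In melanocytes the transcription factors Mitf, Sox10 and Pax3 are known to act on the genes of several of these receptors.

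The promoter of Mc1r and that of Met are shown because these are the receptors whose levels moved with a vector when arrays of the same replicate number were compared. Each sequence runs 5′ to 3′ from 250 bases before to 50 bases after the start site in RefSeq (GRCm38.p6), Mc1r at chr8:123406832-123407131 and Met at chr6:17463707-17464006, both on the plus strand. Capitals mark matches, on either strand, to CATGTG (an E-box that Mitf can bind), TGTTTAC (a forkhead core), ACAAAG or ACAATG (Sox cores) and GGGCGG (a GC box).
Mc1r: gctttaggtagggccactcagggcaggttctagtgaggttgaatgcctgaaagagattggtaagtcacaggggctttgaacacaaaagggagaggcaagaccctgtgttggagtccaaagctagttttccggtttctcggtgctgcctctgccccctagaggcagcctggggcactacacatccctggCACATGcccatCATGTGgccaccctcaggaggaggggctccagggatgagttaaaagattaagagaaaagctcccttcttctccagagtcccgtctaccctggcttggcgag
Met: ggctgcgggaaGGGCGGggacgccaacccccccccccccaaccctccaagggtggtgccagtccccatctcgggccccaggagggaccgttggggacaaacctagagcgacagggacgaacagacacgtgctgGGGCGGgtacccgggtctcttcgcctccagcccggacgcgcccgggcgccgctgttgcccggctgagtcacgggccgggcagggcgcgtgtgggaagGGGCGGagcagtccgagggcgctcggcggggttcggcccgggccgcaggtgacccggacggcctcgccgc
The Mc1r window holds CATGTG at bases 200 to 205 and, on the other strand, at bases 189 to 194, and 14.15% of the 32851 mouse promoters in the table hold this motif. The Met window holds GGGCGG at 3 places, and 35.66% of promoters hold it. Neither window holds the forkhead core or a Sox core, which 3.65% (TGTTTAC), 18.71% (ACAAAG) and 12.57% (ACAATG) of promoters hold. Of the other 2 receptors, the Kit promoter holds 1 GGGCGG and the Ednrb promoter none of the motifs. Such a match is a description of letters, and a missing match says nothing about a factor. The promoters also differ in base composition: Met has 34 CpG and a GC share of 75.7%, Mc1r 4 CpG and 55%, against medians of 7 CpG and 52.7% over all promoters.

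Levels are quantile-normalized log2(intensity + 16), and a probe set was tested only if its mean over the 12 arrays reached the brightness limit of 5.98, which corresponds to an intensity of about 46.9. Both probe sets of Mc1r (means 11.4 and 9.12) and of Met (13.8 and 9.91) lay above this limit on all 12 arrays. Both probe sets of Kit (5.88 and 4.81) and 2 of the 3 of Ednrb (5.11 and 4.58) lay below it on average and are taken as too dim to judge; their values are given without a test. The third Ednrb probe set, 1426314_at, passed narrowly (6.11), with 4 of 12 arrays at or above the limit. Just inside and just outside the limit thus stand this Ednrb probe set at 6.11 and Kit 1452514_a_at at 5.88.

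All 12 melanocyte lineage markers looked up, Dct, Tyr and Pmel among them, lay above the limit, as the line's label would have it. Of the mast cell markers, looked up because mast cells also carry Kit, 2 of 9 lay above it (Hdc and Gata2), while Cpa3 (4.94), Cma1 (5.39) and Fcer1a (4.49) did not. The arrays with replicate number 1 stood apart: 18S ribosomal probe sets averaged 12.9 ± 0.13 (SD, n = 3) on the log2 scale, while the means of the other numbers were 9.60 to 9.95. The hybridization control probe sets averaged 14.67, 13.00, 11.90 and 11.85 for numbers 1, 2, 3 and 4 on that scale. On this measure number 2 also lay above numbers 3 and 4. The Gapdh probe sets, which read RNA quality, were brighter at the 3′ end than at the 5′ end by 0.66 ± 0.10 there and by -0.18 to -0.01 elsewhere. In 12 of 12 same-number pairs of arrays, deviations from the group means correlated (r from 0.39 to 0.64 over the tested probe sets). The 36 pairs of different number had r from -0.51 to 0.50, so the ranges overlap. Because each same-number pair correlated above 0.1, numbers were taken to pair the samples, and each test is given without and with the number as a block. A shift of the arrays numbered 1 alone can make all same-number pairs correlate, because the deviations are from group means. This cut therefore cannot show that the other numbers pair the samples, and calls with the block rest on that choice.

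**Figure D1:**
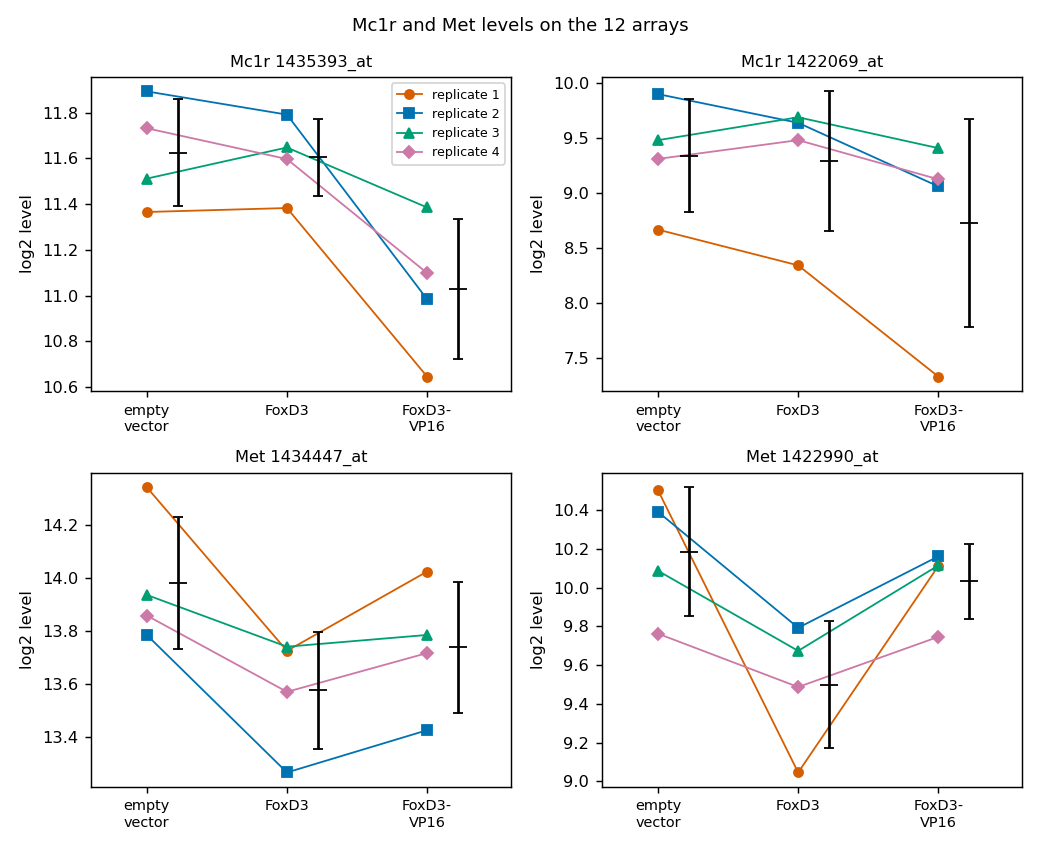
Normalized log2 level (vertical axes, which do not start at 0) of the 4 probe sets of Mc1r and Met in the 3 groups; coloured lines join arrays of the same replicate number, and black bars give the group mean ± SD (n = 4). For Mc1r 1435393_at the mean was 11.03 with FoxD3-VP16 against 11.63 with the empty vector and 11.61 with FoxD3, and both Met probe sets were lowest with FoxD3 in each of the 4 numbers.

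Mc1r, the hormone receptor, was lower with FoxD3-VP16 than with the empty vector or with FoxD3, and its level with FoxD3 was close to that of the empty vector. Its brighter probe set, 1435393_at, had log2 levels of 11.37, 11.89, 11.51 and 11.73 on the empty-vector arrays numbered 1 to 4. With FoxD3 the levels were 11.38, 11.79, 11.65 and 11.60. With FoxD3-VP16 they were 10.64, 10.98, 11.39 and 11.10. Within each number the FoxD3-VP16 array was the lowest of the 3, although the groups overlap by 1 array, number 3 of FoxD3-VP16, which lay above number 1 of either other group. The mean fell from 11.63 ± 0.23 (SD, n = 4) with the empty vector to 11.03 ± 0.31 with FoxD3-VP16 when the number was taken as a block, a 1.51-fold fall (log2 change -0.60, block SE 0.11, adjusted p = 0.00778 by limma). With the block this call was lost when number 4 was left out of all groups (-0.59, adjusted p = 0.0858). Without the block the same change had an SE of 0.17 and did not pass (adjusted p = 0.258). Against FoxD3 (11.61 ± 0.17) the change was -0.58, a 1.49-fold fall with the block (adjusted p = 0.00200) that did not pass without it (0.0674). FoxD3 itself gave -0.02, with a 95% interval of -0.26 to 0.22 with the block and -0.40 to 0.36 without it.

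The dimmer Mc1r probe set, 1422069_at, gave changes of similar size with a wider spread. It had levels of 8.67, 9.90, 9.48 and 9.31 with the empty vector, of 8.34, 9.64, 9.69 and 9.48 with FoxD3, and of 7.33, 9.06, 9.41 and 9.12 with FoxD3-VP16. The arrays numbered 1 were the lowest of every group, and the number accounted for 74.1% of this probe set's variance and the vector for 16.3%, against 23.6% and 63.4% for the brighter one. FoxD3-VP16 was below the empty vector in 4 of 4 numbers (log2 change -0.61) and below FoxD3 in 4 of 4 (-0.55). The first did not pass in either fit (adjusted p = 0.817, and 0.0656 with the block). The second fell with the block (adjusted p = 0.0412) and did not pass without it (0.566), nor with the block once any 1 of the 4 numbers was left out (0.0569 to 0.125) or dim probe sets were tested too (0.0573). Across the 12 arrays the Mc1r probe sets correlated at r = 0.81, and at 0.88 after the mean of each number was subtracted.

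Met, the receptor of hepatocyte growth factor, had its lowest level with FoxD3 on both probe sets. The brighter, 1434447_at, had log2 levels of 14.34, 13.79, 13.94 and 13.86 with the empty vector. It had 13.73, 13.27, 13.74 and 13.57 with FoxD3, and 14.03, 13.43, 13.79 and 13.72 with FoxD3-VP16. Every FoxD3 array lay below every empty-vector array; 4.08% of the tested probe sets had these groups fully apart in this direction. The order was the same in each number: empty vector highest, FoxD3-VP16 between, FoxD3 lowest. The mean went from 13.98 ± 0.25 (SD, n = 4) to 13.58 ± 0.22, a 1.32-fold fall with the block (log2 change -0.41, block SE 0.07, adjusted p = 0.00193), which did not pass without it (SE 0.17, adjusted p = 0.288).

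The second Met probe set, 1422990_at, showed a larger difference. It had levels of 10.50, 10.39, 10.09 and 9.76 with the empty vector, 9.05, 9.79, 9.67 and 9.49 with FoxD3, and 10.11, 10.16, 10.11 and 9.75 with FoxD3-VP16. FoxD3 was lowest in all 4 numbers, and the change against the empty vector ran from -1.46 in number 1 to -0.28 in number 4. The change with FoxD3 was -0.69, a 1.61-fold fall with the block (adjusted p = 0.0130; 0.118 without it). Without the arrays numbered 1 the change was -0.43 and still passed with the block (adjusted p = 0.0343).

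For Met the mean with FoxD3-VP16 lay between the other groups on both probe sets. It was nearer to the empty vector for 1422990_at and nearer to FoxD3 for 1434447_at. Against the empty vector the changes were -0.24 (1434447_at, adjusted p = 0.792, and 0.0535 with the block) and -0.15 (1422990_at, 0.947 and 0.628), and neither passed. Set directly against FoxD3, 1422990_at was 0.53 higher with FoxD3-VP16, a 1.45-fold rise with the block (adjusted p = 0.0287) that did not pass without it (0.159). That call was lost with the block when number 2 (adjusted p = 0.0689) or number 3 (0.0695) was left out, and without number 1 the change was 0.36 (0.0459). For 1434447_at the difference was 0.16 (block interval 0.01 to 0.31) and did not pass (adjusted p = 0.682, and 0.109 with the block). The Met probe sets correlated at r = 0.43 across the 12 arrays and at 0.87 after the means of the numbers were subtracted; the 12 points share 4 numbers.

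**Figure D2:**
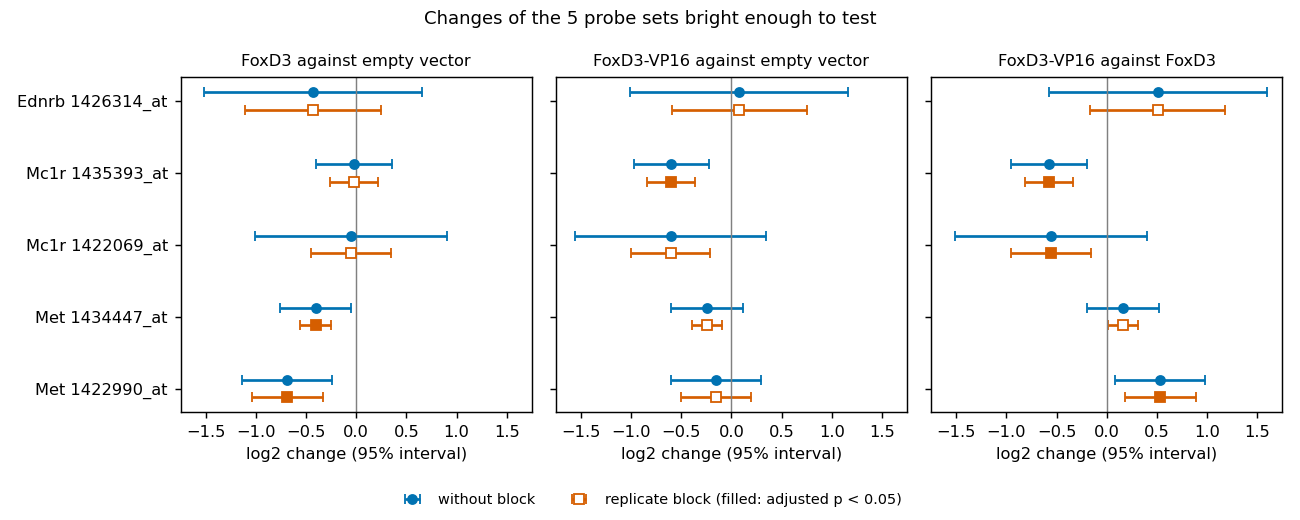
Log2 change (horizontal axes) of the 5 tested probe sets in the 3 comparisons with 95% intervals, without the block (circles) and with the replicate number as a block (squares, filled where the adjusted p is under 0.05). Without the block 0 of 5 passed in each comparison; with it 2, 1 and 3 passed, all of them probe sets of Mc1r or Met.

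In counts, 0 of the 5 tested receptor probe sets changed with FoxD3 without the block by limma (2 at an unadjusted p under 0.05), where 2.52% of 20483 probe sets were called; with the block 2 fell, where 14.7% were called and 6.5% fell. For FoxD3-VP16 against the empty vector 0 of 5 changed without the block (1 at an unadjusted p under 0.05), where 0.308% were called, and 1 fell with it, where 6.9% were called and 3.1% fell. For FoxD3-VP16 against FoxD3 0 of 5 changed without the block (2 at an unadjusted p under 0.05), where 6.9% were called, and with it 2 fell and 1 rose, where 25% were called, 13.1% fell and 11.9% rose. Each count is of 5 probe sets or fewer, so it cannot be set apart from these shares. The 5 probe sets stand for 3 genes, so probe sets of a gene are not separate evidence. The comparisons share arrays: a low Mc1r level with FoxD3-VP16 enters both comparisons that use that group, and a low Met level with FoxD3 enters both that use FoxD3.

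Kit was dim on average, and its probe sets differed in pattern. Kit 1452514_a_at had log2 levels of 5.10, 5.63, 6.22 and 5.66 with the empty vector, 6.81, 6.37, 6.41 and 6.28 with FoxD3, and 4.75, 5.43, 6.01 and 5.91 with FoxD3-VP16. The 4 FoxD3 arrays lay above the 8 others and were the only group with all arrays above the limit; in linear intensity they ran from 51.8 to 117, against 27.4 to 49.0 with the empty vector and 18 to 40 with FoxD3-VP16. Of the tested probe sets, 5.58% had FoxD3 fully above the empty vector and 8.29% had FoxD3-VP16 fully below FoxD3. These shares leave out probe sets with a mean below the limit, such as this one. The FoxD3 group was 0.82 above the empty vector, and FoxD3-VP16 was 0.94 below FoxD3 (log2 change -0.94), each in 4 of 4 numbers. When dim probe sets were let into the test neither passed (adjusted p = 0.465 and 0.234, and 0.218 and 0.106 with the block). Which side of the limit this probe set falls on depends on number 1: without those arrays it was bright enough to test, with changes of 0.54 and -0.60 that did not pass (adjusted p = 0.311 and 0.191, and 0.240 and 0.154 with the block).

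The other Kit probe set, 1415900_a_at, lay below the limit on all 12 arrays. Its levels were 4.15 to 4.75 with the empty vector, 4.19 to 5.25 with FoxD3 and 4.94 to 5.61 with FoxD3-VP16. Here FoxD3-VP16 was the highest group and did not overlap the empty vector. Of the tested probe sets 2.94% did the same in this direction, a share that leaves out probe sets this dim. FoxD3-VP16 was 0.82 above the empty vector in the mean and higher in 4 of 4 numbers. With a pseudocount of 1 in place of 16 that difference was 2.12, and with 64 it was 0.30, so its size is set by the pseudocount. It did not pass when dim probe sets were tested (adjusted p = 0.538, and 0.178 with the block). The Kit probe sets correlated at r = -0.26 across the arrays. Beside these values, the mast cell list had a summed deposited intensity, on the log2 scale, of 8.25 to 9.44 with the empty vector, 8.93 to 9.96 with FoxD3 and 8.17 to 10.05 with FoxD3-VP16. Its defining genes Cpa3 and Fcer1a lay below the limit in every group mean. Of the 2 mast cell markers above it, Gata2 had means of 7.86 with the empty vector, 8.83 with FoxD3 and 7.94 with FoxD3-VP16, highest with FoxD3 as Kit 1452514_a_at was, and Hdc had 7.13, 6.39 and 6.31. Their part in the Kit values was not tested.

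**Figure D3:**
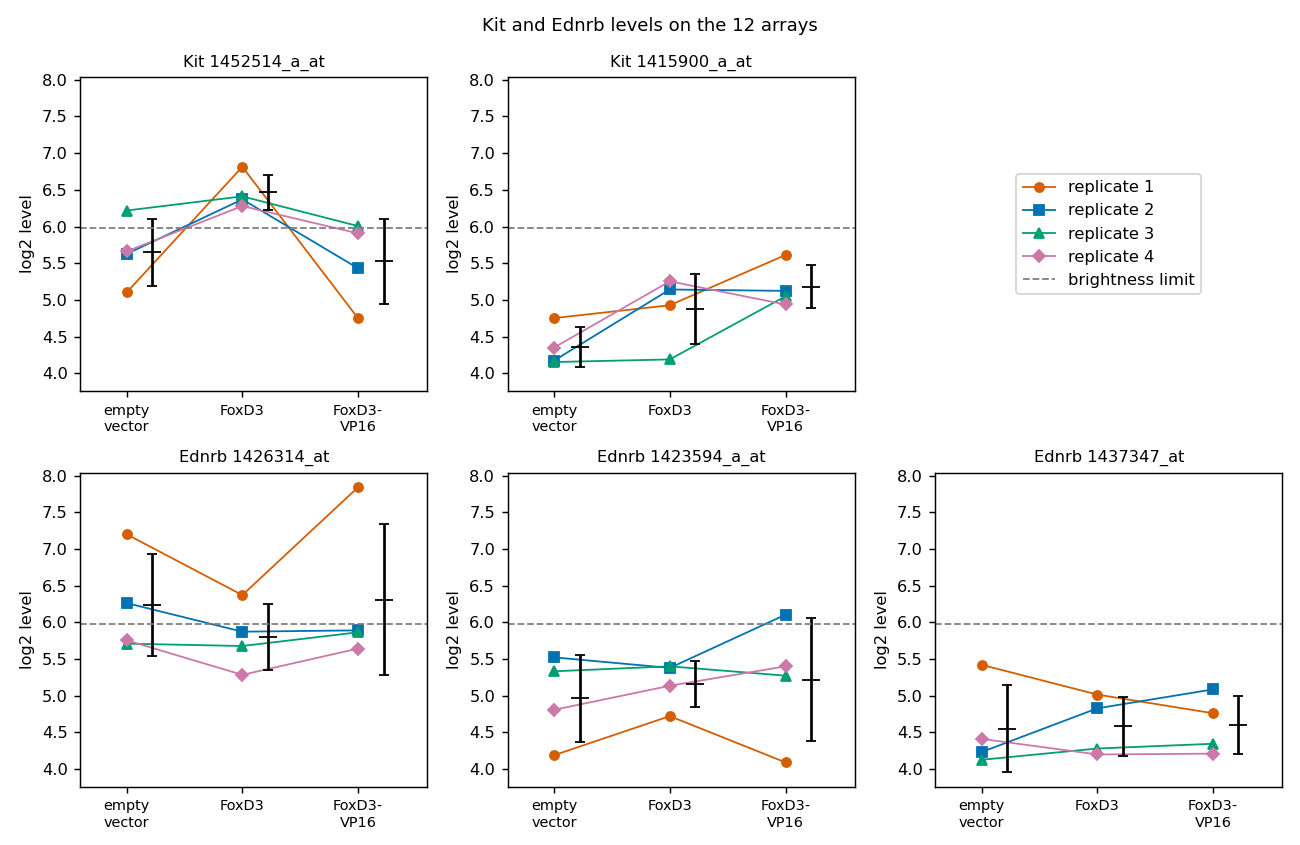
Normalized log2 level (vertical axes, which do not start at 0) of the 2 Kit and 3 Ednrb probe sets in the 3 groups; coloured lines join arrays of the same replicate number, black bars give the group mean ± SD (n = 4), and the dashed line is the brightness limit of 5.98. Most points lie below the limit. Kit 1452514_a_at lies above it on all 4 FoxD3 arrays and on 1 array of each other group, and Ednrb 1426314_at mainly on arrays numbered 1.

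Ednrb, the endothelin receptor, showed no difference between vectors that passed a test. Its tested probe set, 1426314_at, had levels of 7.20, 6.26, 5.71 and 5.76 with the empty vector, 6.37, 5.87, 5.68 and 5.28 with FoxD3, and 7.84, 5.89, 5.86 and 5.64 with FoxD3-VP16. Number 1 was the highest array of every group, and the number accounted for 77.2% of the variance and the vector for 10.3%. The 3 arrays numbered 1 and number 2 of the empty vector were the 4 that reached the limit. The arrays numbered 1 are also those with the high 18S and Gapdh values given above. Number 2 of the empty vector was not among these (18S 9.70, Gapdh difference 0.04). The part of those measures in the Ednrb level was not tested. Without the arrays numbered 1 this probe set fell below the limit too, so its tests rest on them; without the FoxD3-VP16 array numbered 1 alone, the difference between FoxD3-VP16 and FoxD3 was -0.0071. FoxD3 lay below the empty vector in 4 of 4 numbers (log2 change -0.43, SE 0.50, adjusted p = 0.833, and 0.397 with the block, interval -1.10 to 0.24). FoxD3-VP16 had a change of 0.08 against the empty vector (adjusted p = 0.995, and 0.914 with the block) and of 0.51 against FoxD3 (0.669, and 0.266 with the block). Without the block the 95% intervals of the 3 changes ran from -1.52 to 0.65, from -1.01 to 1.16 and from -0.58 to 1.59, so Ednrb is not shown to be unchanged. The probe sets 1423594_a_at (4.09 to 6.10 over all arrays) and 1437347_at (4.13 to 5.42) were too dim, with group means that differed by at most 0.25; on the first of them the arrays numbered 1 were the lowest of every group, opposite to 1426314_at (r = -0.74 over the 12 arrays).

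The ligands of the receptors were mostly at or below the limit in these cells. Of 18 genes for ligands, their inhibitors and activating enzymes, 15 were matched to a probe set and 3 were bright enough to test: Kitl, Pomc and the endothelin-converting enzyme Ece2. None passed without the block in FoxD3 against the empty vector, FoxD3-VP16 against the empty vector or FoxD3-VP16 against FoxD3. Of all genes 3.37%, 0.421% and 8.44% were called in these 3 comparisons. Kitl, the ligand of Kit, had a mean level of 6.47 ± 0.79 (SD, n = 4) with the empty vector, 7.16 ± 0.74 with FoxD3 and 6.07 ± 0.34 with FoxD3-VP16. The FoxD3 array had the highest Kitl level in 4 of 4 numbers, and the change of FoxD3-VP16 against FoxD3 was -1.09 (adjusted p = 0.177, and 0.0413 with the block). Ece2 also fell with the block in that comparison (-0.53, adjusted p = 0.0302). These are 2 of 3 genes, where 30% of all genes were called with the block, and 3 genes are too few to set apart from that share. Pomc, the precursor of alpha-MSH, had changes of -0.03 with FoxD3 and -0.35 with FoxD3-VP16 and passed in neither fit. Edn1 (5.11), Edn3 (5.45) and Hgf (5.18) had mean levels below the limit. Asip and Ednra were on the lists but were not matched to a probe set with 1 symbol, so no values are given for them. Of the 18 related receptors and accessory proteins, 7 of 15 matched were tested. In each comparison 0 passed without the block, where 3.37%, 0.421% and 8.44% of all genes were called. With the block, Pdgfra, a kinase related to Kit, rose with FoxD3 (1.21, adjusted p = 0.0241; 0.0891 without it), and Cd44, a coreceptor of Met, fell with FoxD3-VP16 against the empty vector (-0.42, adjusted p = 0.0116; 0.233 without it). For FoxD3-VP16 against FoxD3 the blocked fit called 2 genes: Cd44 was lower (-0.39, adjusted p = 0.00482), and Mgrn1, a ubiquitin ligase that dampens melanocortin receptor signalling, was higher (0.40, adjusted p = 0.0210, higher in 4 of 4 numbers). These are 1, 1 and 2 of 7 genes in the 3 comparisons with the block, where 18.7%, 8.93% and 30% of all genes were called.

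Among transcription factors known to act on the receptor genes, 1 of 12 tested rose and 3 fell with FoxD3, against 3.37% called over all 10916 genes (median log2 change 0.04, against -0.00 over all genes). Sox10 rose (0.73, SE 0.12, adjusted p = 0.00490), and Mitf (-1.09, adjusted p = 0.00737), Pax3 (-1.05, adjusted p = 0.00619) and Tfap2a (-0.95, adjusted p = 0.00341) fell. With FoxD3-VP16 against the empty vector 0 rose and 1 fell, Sox10 (-0.72, adjusted p = 0.0264), where 0.421% of genes were called; Mitf had -0.43 and passed with the block only (adjusted p = 0.540, and 0.0386 with the block). With FoxD3-VP16 against FoxD3, 3 rose and 1 fell: Pax3 (0.84), Tfap2a (0.76) and Mitf (0.66, adjusted p = 0.0494, lost when dim probe sets are tested too, 0.0757) were higher and Sox10 (-1.45) lower. Set beside the receptors, Mitf, Pax3 and Tfap2a were lowest with FoxD3, as Met was, and Sox10 was lowest with FoxD3-VP16, as Mc1r was. The likeness is partial: with FoxD3 against the empty vector Sox10 changed by 0.73 and Mitf by -1.09, while Mc1r 1435393_at changed by -0.02. The part of these factors in the receptor levels was not tested. With the block 7, 6 and 8 of the 12 factors changed in the 3 comparisons (2 up and 5 down, 2 up and 4 down, 4 up and 4 down), where 18.7%, 8.93% and 30% of genes were called. The 4 named factors were among the genes already known to respond in these data.

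Downstream of the kinases, 1 of 26 tested adaptors and effectors changed with FoxD3 (3.85%, close to the 3.37% of all genes; median 0.06). With FoxD3-VP16 against the empty vector 0 of 26 changed, where 0.421% of genes were called (median 0.03). Sh2b3, an adaptor that restrains signalling from Kit and related receptors, rose with FoxD3 (0.75, SE 0.16, adjusted p = 0.0275) and was lower with FoxD3-VP16 than with FoxD3 (-1.05, adjusted p = 0.00172). In that last comparison Shc1, an adaptor that links receptors to Ras (1.16, adjusted p = 0.00908), and the Src family kinase Fyn (0.75, adjusted p = 0.0333) were higher, so 3 of 26 changed, where 8.44% of genes were called. With the block 8, 2 and 11 of the 26 changed in the 3 comparisons, where 18.7%, 8.93% and 30% of genes were called.

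Downstream of the G protein-coupled receptors, 2 of 32 tested genes (6.25%) changed with FoxD3 (median 0.15), both upward, where 3.37% of genes were called. They were Arrb1, the arrestin that ends signalling of such receptors (1.72, SE 0.28, adjusted p = 0.00580), and the cyclic AMP-forming enzyme Adcy6 (1.08, SE 0.20, adjusted p = 0.0130). Both were lower again with FoxD3-VP16 than with FoxD3, by log2 changes of -1.67 and -1.11 (adjusted p = 0.00317 and 0.00545). In the same comparison 6 of 32 changed, 3 up and 3 down, where 8.44% of genes were called (median -0.26, against -0.03 over all genes). Crem, a transcription factor of the cyclic AMP response, was higher (1.34, adjusted p = 0.0191), and so was Plcb1, a phospholipase of Gq-coupled receptors (1.16, adjusted p = 0.0402, lost when dim probe sets are tested too, 0.0887). With FoxD3-VP16 against the empty vector 0 of 32 changed (median -0.01), where 0.421% were called. With the block the counts were 15, 1 and 22 of 32, where 18.7%, 8.93% and 30% of genes were called.

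**Figure D4:**
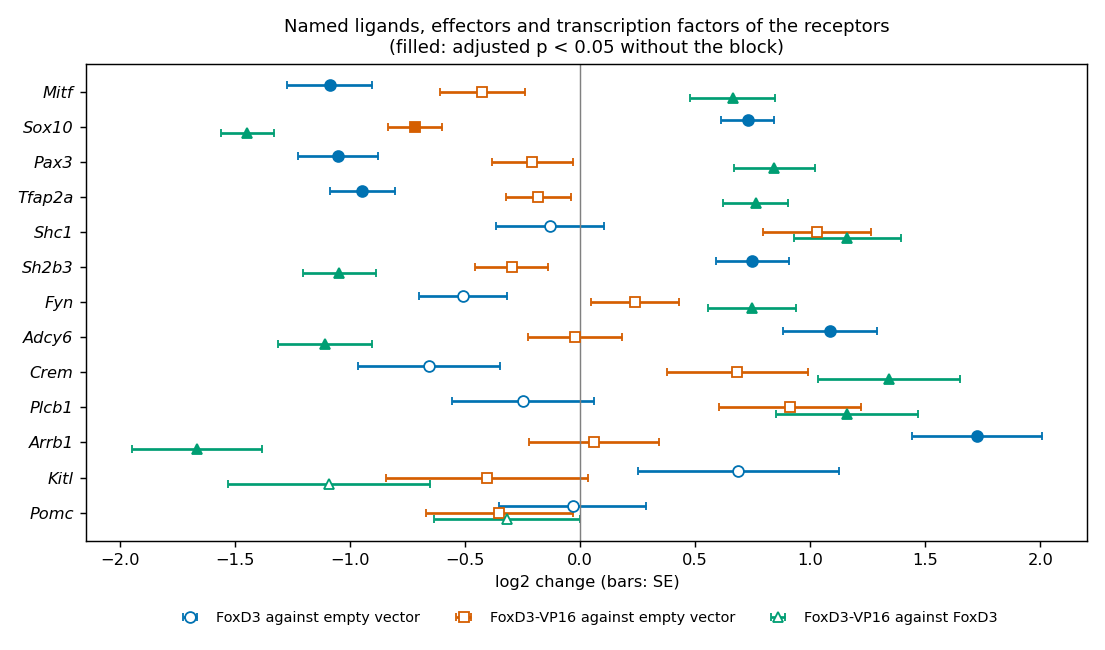
Log2 change (horizontal axis, bars are SE of the fit without the block) of 13 named ligands, effectors and transcription factors in the 3 comparisons; filled symbols have an adjusted p under 0.05. Sox10, Arrb1, Adcy6 and Sh2b3 lie on the right with FoxD3 and on the left for FoxD3-VP16 against FoxD3, and Mitf, Pax3 and Tfap2a the other way round.

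Markers of other cells moved with the vector in 1 list. Of 9 fibroblast markers 5 lay above the limit. The summed deposited intensity of the 9, on the log2 scale, was 9.78 to 10.23 with the empty vector, 10.81 to 11.52 with FoxD3 and 10.42 to 10.77 with FoxD3-VP16. None of the groups overlapped another, and FoxD3-VP16 lay between the others. Of single tested probe sets, 5.58% had FoxD3 and 2.94% had FoxD3-VP16 fully above the empty vector, and 8.29% had FoxD3-VP16 fully below FoxD3. The defining markers Dcn (4.67), Lum (4.97) and Col3a1 (5.21) were below the limit, as was Thy1 (5.01). Of the 5 above it, 4 had a higher mean with FoxD3 than with the empty vector: Col1a1 (7.80 against 5.12), Col5a1 (10.17 against 8.85), Pdgfrb (9.31 against 7.48) and Pdgfra (7.20 against 5.99). Col1a2 had the opposite order (7.07 against 7.79). With FoxD3-VP16 the means were 6.19 for Col1a1, 9.02 for Col5a1, 9.08 for Pdgfrb, 6.66 for Pdgfra and 7.90 for Col1a2, each above the empty vector. The part of this list in the Met values was not tested.

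The genes whose levels followed each receptor most closely over the 12 arrays, among 10915 others, were named for the 3 receptors bright enough. For Mc1r 1435393_at they were Tex2, Pawr, Ddhd2, Ppp1r13b and Srgap2, with r from 0.87 to 0.88, and from 0.84 to 0.88 after the means of the numbers were subtracted. Those nearest Met 1434447_at were Hace1, Rfx3, Cacng7, Eogt and Mcm10, at 0.90 to 0.92 (0.82 to 0.89 after subtraction). The genes nearest Ednrb 1426314_at were Slamf6, Tes3-ps, Donson, BC052688 and Tbc1d2b, at 0.94 to 0.96 (0.75 to 0.82 after subtraction). Such correlations are descriptions, since the arrays share 4 numbers and 3 vectors.

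**Figure D5:**
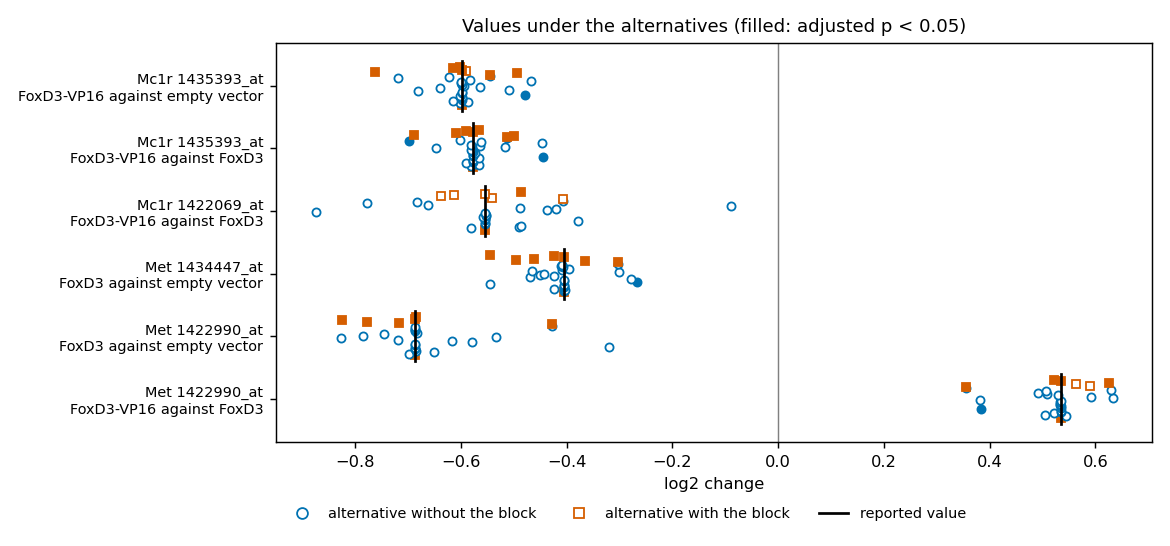
Log2 change (horizontal axis) of the 6 receptor values that passed with the block, under each alternative way of processing; circles are alternatives without the block, squares with it, filled where the adjusted p is under 0.05, and the black line is the reported value. No alternative turned the direction of any of the 6, which ran from -0.87 to -0.09 for Mc1r 1422069_at and from -0.55 to -0.27 for Met 1434447_at; the mean of all probe sets of a gene is drawn with its brightest probe set.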

How the data were processed

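The values deposited by the authors are linear intensities of 45101 probe sets on 12 arrays; MAS5 is named per the submitters' processing notes (version not given in the sources used here), and a label names dChip. Each array had been scaled to a trimmed mean of 500.003 to 500.004, without the lowest and highest 2%. Because medians of log2(intensity + 16) spanned 0.79, over the limit of 0.5, quantile normalization was applied to the deposited intensities. The 64 control probe sets were left out; 34945 probe sets have 1 symbol in the platform's annotation. The brightness limit is the 40th percentile of 18193 genes' brightest probe sets, which left 20483 probe sets tested. limma 3.58.1 (R 4.3.3; lmFit, eBayes with trend) was fitted to all 12 arrays without a block, or with the replicate number as a block, with Benjamini-Hochberg adjustment; 24 other ways of processing, and 7 more chosen after seeing the data, were tried; an adjusted p under 0.05 is a call. Of 121 genes on pathway lists, 107 matched a probe set, and the brightest stood for each gene. Named genes are all receptor probe sets, up to 4 called genes per list and comparison, and 11 fixed genes; Ece2, Pdgfra, Cd44, Mgrn1 and the marker genes with values were chosen after their values were seen. The pairing by number comes from the correlations between arrays (0.39 to 0.64 for the same number, -0.51 to 0.50 for different numbers), since the labels do not say what a number shares. The receptors, lists and tests were chosen with earlier results of these data known. Precision is limited by having 4 arrays per group. The calculation was tested on simulated data. Promoters came from RefSeq. Plots were drawn with matplotlib 3.10.9.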

Additional observations from a re-analysis of the deposited data

Results flagged for a closer look

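In 4 of the 27 groups of 4 arrays looked at, 1 array lay far from the other 3; chance alone gives about 1 in 20 groups. For Ednrb 1426314_at the FoxD3-VP16 array numbered 1 had a log2 level of 7.84, against 5.64 to 5.89 for the other three. Mc1r 1422069_at was at 8.34 on the FoxD3 array numbered 1, against 9.48 to 9.69, and at 7.33 on the FoxD3-VP16 array numbered 1, against 9.06 to 9.41. Met 1422990_at was at 9.75 on the FoxD3-VP16 array numbered 4, against 10.11 to 10.16. In the first 3 the array carries the number 1, which stood apart in its 18S and Gapdh probe sets; the part of those measures was not tested.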

How the results depend on the processing

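Counts are given for FoxD3 against the empty vector, FoxD3-VP16 against the empty vector and FoxD3-VP16 against FoxD3, in that order, first over all probe sets and then over the receptors. The main fit called 517, 63 and 1413 probe sets and 0, 0 and 0 of the receptors. With the replicate block it called 3016, 1414 and 5121, and 2, 1 and 3. Array quality weights gave 5779, 4585 and 6815, and 1, 1 and 2. The mean of all probe sets of each gene gave 918 calls in the last comparison, no intensity trend gave 32 in the second, and a fit to only the groups compared gave 318 and 20 in the first and second. Leaving out replicates (without the block) gave 200 to 1099, 12 to 252 and 738 to 2691, and 0 to 1 of the receptors in the last comparison. Leaving out 1 array at a time, the highest counts were 689, 76 and 1588. In the last comparison Mc1r 1435393_at was called when the 3 arrays of number 1 were dropped (-0.51, adjusted p = 0.0328), or the FoxD3-VP16 array of number 3 alone (-0.70, adjusted p = 0.0478).

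The other fits with the replicate block were chosen after seeing the data. Without number 1 the block gave 2795, 1891 and 5107, and 2, 1 and 2; without number 2 it gave 2478, 1288 and 4039, and 2, 1 and 1. Without number 3 it gave 1564, 265 and 3309, and 2, 1 and 1; without number 4 it gave 1241, 211 and 2869, and 2, 0 and 2. With no filter on dim probe sets the block gave 2605, 1079 and 4513, and 2, 1 and 2. With the values as deposited it gave 3208, 1522 and 5322, and 2, 1 and 3. With the mean of all probe sets of each gene it gave 1619, 740 and 2707, and 1, 1 and 2.

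Over all alternatives with a test the adjusted p ran from 0.000940 to 0.284 for Mc1r 1435393_at between FoxD3-VP16 and FoxD3, and from 0.00397 to 0.588 against the empty vector. For FoxD3 against the empty vector it ran from 0.00193 to 0.605 for Met 1434447_at and from 0.0115 to 0.265 for Met 1422990_at. Between FoxD3-VP16 and FoxD3 it ran from 0.0287 to 0.337 for Met 1422990_at and from 0.0349 to 0.915 for Mc1r 1422069_at, and none of these 6 turned sign.

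Changes that passed nowhere turned sign, and the cause was not tested. For FoxD3 against the empty vector, Mc1r 1422069_at was 0.19 with array weights and 0.018 with the block without number 2. It was 0.040 without number 1, with or without the block, and with single arrays left out it ran from -0.28 to 0.26 (0.13 without the empty-vector array numbered 2). In the same comparison Mc1r 1435393_at was 0.0063 and 0.018 with the block without numbers 2 and 4. With single arrays left out it ran from -0.11 to 0.068 (0.015 and 0.053 without the empty-vector array numbered 4 and the FoxD3 array numbered 1). For FoxD3-VP16 against the empty vector, Met 1422990_at was 0.065 with array weights. There Ednrb 1426314_at was -0.12 without number 1, with or without the block, and with single arrays left out it ran from -0.44 to 0.41 (-0.097 and -0.081 without the empty-vector arrays numbered 3 and 4). Against FoxD3 it was -0.0071 without the FoxD3-VP16 array numbered 1 and at most 0.73 without another single array.

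The number of arrays limits precision, and signal near background limits Kit and Ednrb.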
